A study of Mus musculus with 3 samples.

Results

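The cytosolic ribosomal protein genes encode the proteins of the large (Rpl) and small (Rps) ribosomal subunits, and they were followed in mouse neurons at 0, 1 and 6 h of membrane depolarization. Members were the rows whose gene symbol is Rpl or Rps followed by a number, with at most one of the letters a, x, y or l and one further digit, together with Rplp0 to Rplp2 and Rpsa. The rule found 79 of the 25562 genes, of which 47 belong to the large and 32 to the small subunit. It used symbols only and no read count. The cells were wild-type neurons of C57Bl/6 background, grown for 10 days from the medial ganglionic eminence (MGE) of E14 mouse embryos, the region that gives rise to inhibitory interneurons. All cultures, the 0 h one included, were silenced overnight with TTX, which blocks voltage-gated sodium channels, together with the NMDA receptor antagonist AP-5. They were then exposed to 55 mM KCl for 1 h or 6 h, or collected at 0 h. Each time had 1 library of ribosomal-RNA-depleted total RNA, so no difference below has a replicate check, and none is given with a p-value.

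Ribosomal protein genes are expressed in every cell, and their mRNAs start with an oligopyrimidine tract through which mTOR signalling sets their translation. They are short, made of many small exons, and copied many times across mammalian genomes as processed pseudogenes, so that short reads from their exons often match several places. Many of them also carry small nucleolar RNAs (snoRNAs) in their introns. C/D snoRNAs guide ribose methylation of ribosomal RNA and H/ACA snoRNAs guide its pseudouridylation, and both are cut out of the spliced intron and trimmed to a stable RNA.

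The snoRNAs below lie in member introns with many reads and are shown because such introns held most of the reads over ribosomal protein genes. The sequences are those of GENCODE vM21 on GRCm38, read 5′ to 3′ on the strand of the host gene. Capitals mark the C box letters TGATG and the D box letters CTGA of the C/D snoRNAs, and the ACA near the 3′ end of the H/ACA snoRNAs. Snord100 (chr10:23785750-23785823, minus strand) lies in intron 4 of Rps12, Snord32a (chr7:45127382-45127464, minus strand) in intron 2 of Rpl13a, and Snord15b (chr7:99479563-99479707, minus strand) in intron 5 of Rps3. Snord16a (chr9:64175423-64175521, plus strand) lies in intron 3 of Rpl4. Snora7a (chr6:115807975-115808114, minus strand) lies in intron 1 of Rpl32 and Gm26205 (chr5:121205010-121205143, plus strand) in intron 1 of Rpl6.
Snord100: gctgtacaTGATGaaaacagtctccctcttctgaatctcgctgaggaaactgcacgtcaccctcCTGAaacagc
Snord32a: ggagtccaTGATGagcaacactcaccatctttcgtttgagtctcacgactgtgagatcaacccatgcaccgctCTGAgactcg
Snord15b: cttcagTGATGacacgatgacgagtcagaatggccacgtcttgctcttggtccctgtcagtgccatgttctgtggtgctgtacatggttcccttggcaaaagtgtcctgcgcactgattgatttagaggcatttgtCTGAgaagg
Snord16a: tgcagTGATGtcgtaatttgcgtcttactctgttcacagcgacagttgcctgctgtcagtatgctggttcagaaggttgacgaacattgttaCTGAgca
Snora7a: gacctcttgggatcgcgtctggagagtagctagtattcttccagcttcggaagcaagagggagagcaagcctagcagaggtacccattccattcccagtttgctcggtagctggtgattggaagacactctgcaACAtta
Gm26205: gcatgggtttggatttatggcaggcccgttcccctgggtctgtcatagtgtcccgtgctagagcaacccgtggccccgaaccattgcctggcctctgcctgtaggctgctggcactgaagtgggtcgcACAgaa
Each of the 4 C/D sequences printed here has its C box near the 5′ end and its D box near the 3′ end, the arrangement by which this class is recognised. Both H/ACA sequences end 3 bases after their ACA. The classes were assigned here by these letters, so their presence near the ends was set by the choice of sequences.

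Sense reads were deposited as counts over the exons and over the introns of each gene, after unique mapping to mm9 with up to 3 mismatches. The 3 libraries held 8549377 to 8996897 mapped reads, of which 2189394 to 2480579 were sense exonic and 1789710 to 2123187 sense intronic. Members took 3865, 4863 and 4727 exonic reads at 0, 1 and 6 h, or 0.177%, 0.198% and 0.191% of all exonic reads. Their introns took 45307, 61410 and 53129 reads, or 2.13%, 3.43% and 2.54% of all intronic reads. Member exons therefore held far fewer reads than member introns in every library. All 8 markers of MGE-derived inhibitory neurons were measured, with a summed level of 3663, 3534 and 5252 scaled RPM (reads relative to the TMM-scaled exonic total) at 0, 1 and 6 h. Markers of excitatory neurons summed to 0.844 to 3.58, of microglia to 0 to 0.446, of oligodendrocytes to 85.7 to 142, of astrocytes and radial glia to 891 to 909 and of dividing cells to 105 to 114. The part of these other cells in the results below was not tested. In bulk RNA, fewer cells of a type and less RNA per cell cannot be told apart.

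The exons of ribosomal protein genes had low unique mappability. The authors' exon mappability index, by which they divided their coverage, is low where reads of a gene can seldom be placed uniquely. It is not strictly a share of the exons, since its highest value over all genes was 123%. It had a median of 10.0% over the 68 members that carry one, with a range of 0.103% to 93.5%. Over all genes the median was 92.7%. Mitochondrial ribosomal protein genes, which encode the ribosome of the mitochondrion, had a median of 88.2%. The index was under 10% for 34 members, 50.0% of those with one, against 6.19% of all genes. It was under 50% for 58 members, 85.3% of those with one, against 18.2% of all genes. The 11 members with no index included Rpl9, Rpl11, Rpl22l1, Rpl28, Rps4x, Rps10, Rps27, Rps28 and Rps29. An index of 50% or more was given to 10 members, among them Rpl3l (93.5%), Rps15a (86.5%), Rpl22 (83.0%), Rpl8 (82.4%), Rps3 (71.3%), Rpl21 (66.9%), Rpl37 (58.8%) and Rpl31 (54.3%). The median index was 7.28% for large and 13.1% for small subunit members.

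**Figure D1:**
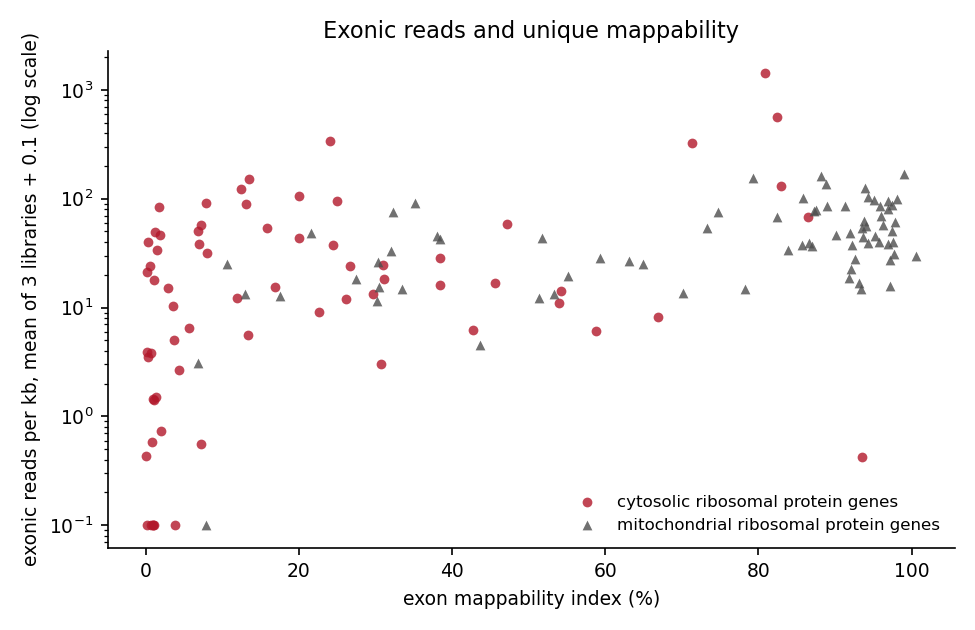
Each point is a gene with a mappability index. The x axis is the deposited exon mappability index in percent, and the y axis the exonic reads per kb as the mean of the 3 libraries plus 0.1, on a log scale. Ribosomal protein genes of the cytosol lie mostly toward the low end of the x axis, with a median index of 10.0%, while those of the mitochondrion lie mostly toward its high end, with a median of 88.2%.

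Reads followed this index only in part. A member was compared between libraries when it had at least 20 exonic reads in 1 of them, and 26 members reached this in some comparison. They were 10 of the 34 members with an index under 10%, 11 of the 24 between 10% and 50%, and 5 of the 10 at 50% or more. By subunit they were 14 of the 47 large and 12 of the 32 small subunit members. Of the mitochondrial ribosomal protein genes, 66 of 75 reached it. The median member had 12.2 exonic reads per kb, with a range of 0 to 1417, while the median mitochondrial ribosomal protein gene had 40.2, with a range of 0 to 168. The deposited counts listed 12 members at 0 in all 3 libraries, among them Rpl9, Rpl11, Rpl19, Rpl23a, Rpl24, Rpl27, Rpl28, Rpl36, Rpl36a, Rps27 and Rps28. A further 41 had 1 to 19 reads in their highest library. The large subunit ones included Rpl3, Rpl3l, Rpl5, Rpl6, Rpl10, Rpl10a, Rpl13, Rpl14, Rpl17, Rpl18, Rpl21, Rpl22l1, Rpl26, Rpl29, Rpl31, Rpl34, Rpl35, Rpl35a, Rpl37, Rpl37a, Rpl38, Rpl39 and Rpl41. The small subunit ones included Rps4x, Rps6, Rps7, Rps10, Rps12, Rps13, Rps16, Rps18, Rps19, Rps23, Rps24, Rps25, Rps27a, Rps27l, Rps29 and Rpsa. Where the index is low, a low count cannot be read as a low mRNA level.

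The members with many exonic reads named here had indices from 24.1% for Rpl4 to 86.5% for Rps15a. Rps3, a protein at the mRNA entry of the small subunit (mm9 chr7:106626406-106632219, minus strand), had 491, 617 and 732 reads at 0, 1 and 6 h. Rpl4 (chr9:64021182-64026473, plus strand), a protein that lines the peptide exit tunnel, had 450, 583 and 544. Rpl8 (chr15:76734529-76736744, plus strand), a protein near the peptidyl transferase centre, had 429, 459 and 517. Rps15a (chr7:125247888-125259661, minus strand) had 330, 444 and 270, and Rpl22 (chr4:151699985-151708180, plus strand) 253, 321 and 231. The last pair had fewer reads at 6 h than at either earlier time, while Rps3 and Rpl8 had most at 6 h.

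For Rps15a and Rpl22 the reads came mostly from one exon. Exon 5 of Rps15a, the last, spans 4820 bp or 93.8% of the annotated exon length, and held 307, 425 and 245 reads, or 99.6% of the reads lying within single exons. Exon 4 of Rpl22, also the last, spans 1792 bp or 87.8% of the length and held 92.2%. Exon 4 of Rpl15 (1494 bp) and exon 5 of Rpl27a, both the last as well, each held 100% of such reads in their gene. The values of Rps15a and Rpl22 thus describe annotated forms with long last exons. In Rpl7a, whose index is 0.24%, all 8, 22 and 24 reads within single exons lay in exon 3, of 150 bp.

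At 1 h of KCl, 20 of the 26 members compared had a ratio to 0 h above 1, where 51.0% of all 10093 genes compared did. The median log2 ratio was 0.22 over members and 0.01 over all genes. Ratios are of reads scaled by edgeR's TMM factors, each with an exact 95% interval that covers counting error only. The interval lay above 1 for 4 members, Rpl30, Rpl15, Rps15a and Rpl4, and below 1 for none; over all genes it lay above 1 for 12.1% and below 1 for 12.9%. The members' share above 1 was thus near that of all genes. Rpl30, a large subunit protein, had 24 reads at 1 h and 8 at 0 h, a ratio of 2.68 (95% interval 1.16 to 6.89). It was the 1 member with both a ratio of 2 or more and an interval above 1, as were 1.58% of all genes, and none was 2-fold or more lower with an interval below 1, as were 1.43% of all genes. Rpl7a also had a ratio above 2, of 2.18, with 22 reads at 1 h and 9 at 0 h, but its interval of 0.96 to 5.38 spanned 1. Further counts of 2-fold differences likewise ask for an interval on the same side of 1. Rpl15, a large subunit protein, had 209 reads at 1 h and 141 at 0 h, a ratio of 1.32 (1.06 to 1.65). For Rps15a the ratio was 1.20 (1.04 to 1.39), and for Rpl4 it was 1.16 (1.02 to 1.31). Summed over all members, the ratio was 1.12 (1.08 to 1.17), and single members ranged from 0.717 to 2.68. With scaling by uniquely mapped reads, 13 members had an interval above 1 and their median log2 ratio was 0.46, while the median of all genes also moved up, by 0.25.

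By 6 h of KCl, 19 of the 25 members compared had a ratio to 0 h above 1, where 50.2% of all genes did, with a median log2 ratio of 0.25 over members and 0.00 over all genes. The interval lay above 1 for 9 members, against 23.2% of all genes, and below 1 for 1 member, against 21% of all genes. Rpl30 had 32 reads at 6 h and 8 at 0 h, a ratio of 3.78 (1.71 to 9.50). Rpl7a had 24 and 9, a ratio of 2.52 (1.13 to 6.16), and Rplp2, one of the acidic stalk proteins that bring translation factors to the ribosome, had 37 and 15, a ratio of 2.33 (1.25 to 4.57). Rpl7 had 57 and 26, a ratio of 2.07 (1.28 to 3.44). These 4 members were 2-fold or more higher, where 4.92% of all genes were, and none was 2-fold or more lower, where 5.42% were. The 4 had at most 57 reads in either library. Their index was 0.24% for Rpl7a, 0.26% for Rplp2, 1.83% for Rpl7 and 24.4% for Rpl30. The ratios of Rpl7a, Rplp2 and Rpl7 thus rest on very little mappable sequence. Rps3 had 732 reads at 6 h and 491 at 0 h, a ratio of 1.41 (1.26 to 1.58). Rpl13a, a large subunit protein, had 100 and 66 reads, a ratio of 1.43 (1.04 to 1.99). For Rpl4 and Rpl8 the ratio was 1.14 each, with intervals of 1.01 to 1.30 and 1.00 to 1.30. Rps15a was the member whose interval lay below 1, with 270 reads at 6 h and 330 at 0 h, a ratio of 0.77 (0.66 to 0.91). The sum over members gave a ratio of 1.16 (1.11 to 1.21). With scaling by total exonic reads the intervals of Rpl13a, Rpl4 and Rpl8 spanned 1, and with scaling by mapped reads that of Rps15a did. Over the 4 members with an index of at least 80% the median log2 ratio was -0.012.

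The difference between 6 h and 1 h was smaller over members, with a median log2 ratio of 0.17 against 0.01 over all genes and a ratio of sums of 1.03 (0.990 to 1.07). The interval lay above 1 for 3 of 26 members, against 21.5% of all genes, and below 1 for 2, against 17.8%. Rps3 had a ratio of 1.26 (1.13 to 1.40) and Rpl8 of 1.19 (1.05 to 1.36). Rps15a had a ratio of 0.64 (0.55 to 0.75) and Rpl22 of 0.76 (0.64 to 0.91). Under total exonic and under mapped-read scaling the interval of Rpl8 spanned 1, and over members with an index of at least 80% the median was -0.16. Rps15a was thus higher at 1 h than at 0 h and lower at 6 h than at either. None was 2-fold or more higher or lower, where 4.17% and 4.63% of all genes were. By subunit, at 1 h the interval lay above 1 for 3 of 14 large and 1 of 12 small subunit members, with median log2 ratios of 0.43 and 0.14, where 12.1% of all genes lay above 1. For 6 h against 0 h it lay above 1 for 7 of 14 large and 2 of 11 small subunit members, with median log2 ratios of 0.30 and 0.20, where 23.2% of all genes lay above 1, so the share of small subunit members was near that of all genes. The difference between subunits was not tested.

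**Figure D2:**
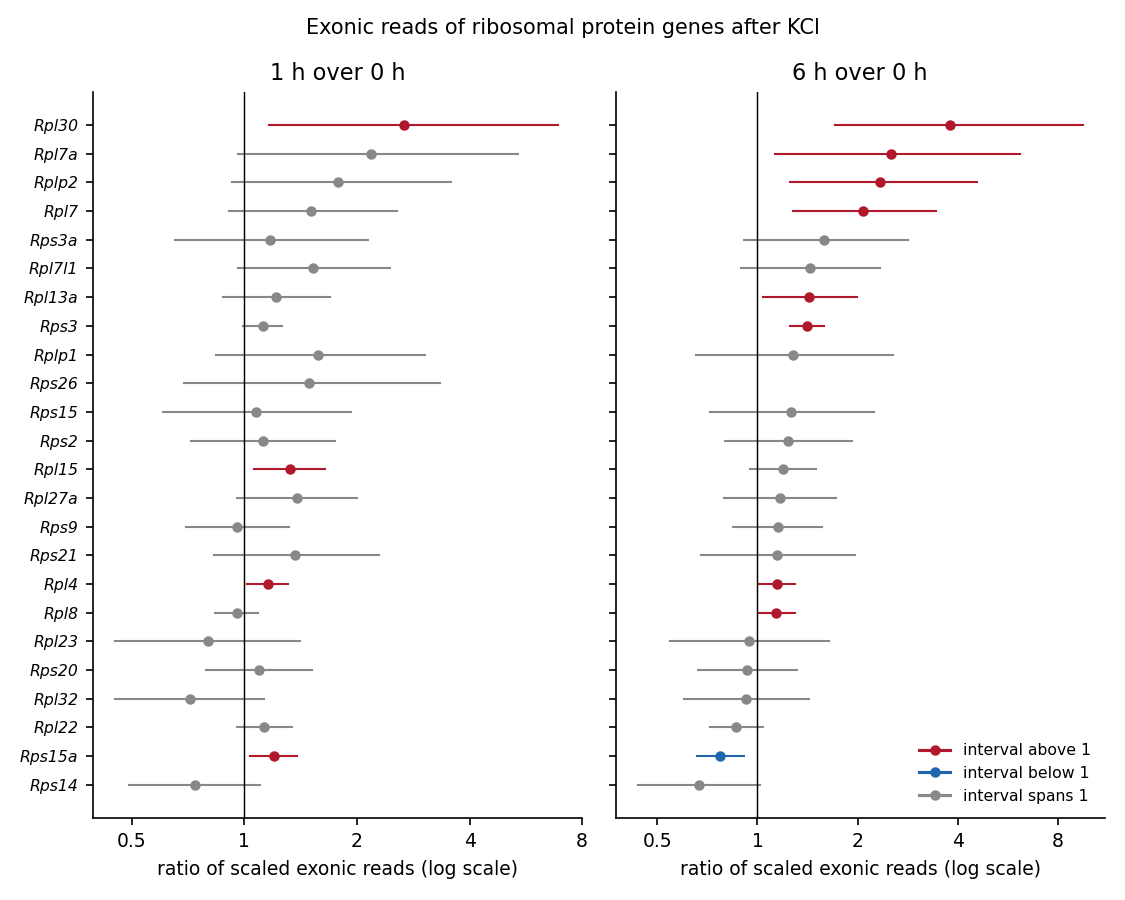
Each row is a member with enough exonic reads, in order of the ratio at 6 h. Points are ratios of TMM-scaled exonic reads, 1 h over 0 h on the left and 6 h over 0 h on the right, on a log scale, and lines are exact 95% intervals for counting error. Rpl30 stands highest in both panels, at 2.68 and 3.78, and Rps15a is the one interval below 1 at 6 h.

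Member levels relative to one another can be read only per mappable length, and this divides some counts by very few bases. The highest mean levels, in scaled RPM per mappable kb, were 6434 for Rplp2, 3667 for Rpl7a, 2107 for Rpl32, 1660 for Rps2, 1068 for Rpl7 and 940 for Rps3a. The mappable length, the index times the exon length, was 1.77, 2.08, 8.58, 11.7, 16.6 and 13.1 bases for these genes, in the same order, so these are not firm levels. Rpl4 was at 595, with a mappable length of 371 bases, Rps14 at 485 and Rps20 at 473. The lowest levels among members with enough reads were 15.4 for Rpl7l1, 31.4 for Rpl23, 32.9 for Rps15a, 51.3 for Rpl27a and 63.8 for Rpl30. Of the stalk proteins, Rplp1 had 17, 30 and 23 exonic reads at 0, 1 and 6 h and Rplp2 had 15, 30 and 37. The gene that anchors them has the current symbol Rplp0 but stands in the files as Arbp, outside the symbol rule, with 101, 128 and 152 reads and an index of 17.1%. Rpsa, which is also known as a laminin receptor, had 6, 16 and 12 reads, and Rps6, the small subunit protein phosphorylated downstream of mTOR, had 11, 4 and 8. Neither reached the minimum.

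Paralogs within the family had very different indices. Rpl3l, the muscle form of Rpl3, had 0, 1 and 0 reads at 0, 1 and 6 h with an index of 93.5%. Rpl3 itself had 2, 8 and 3 reads, with an index of 0.278%. The low count of Rpl3l came with a high index, that of Rpl3 with a very low one. Rps27l had 11, 9 and 14 reads with an index of 31.0%, and Rps27, which has none, was listed at 0 in all 3 libraries. Rpl7l1 had 31, 53 and 47 reads with an index of 45.6%, next to 26, 44 and 57 for Rpl7. Rpl22l1, the paralog of Rpl22, had 2, 6 and 1 reads, and Rpl22 had 253, 321 and 231. Rps4x had 6, 15 and 5 reads, Rpl39 had 6, 19 and 12 and Rpl10 had 0, 2 and 1. Unique mapping drops reads that match several places, so counts of paralogs with unlike indices cannot be compared. Whether those places are the paralog or other copies was not tested.

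Most reads over member introns lay in introns that hold a snoRNA. Of 353 member introns, 351 were matched by gene and exact length to an intron of GENCODE vM21, and 58 of them, in 29 members, contain 58 annotated snoRNAs. By their letters 34 of these are of the C/D class, in 15 hosts, 18 of the H/ACA class, in 14 hosts, and 6 of neither. These introns make up 17.2% of the member intron length and held 42687, 57753 and 49854 reads at 0, 1 and 6 h, or 94.2%, 94.0% and 93.8% of all member intronic reads. Per kb this was 540, 652 and 597 scaled RPM, against 6.87, 8.56 and 8.13 in the other 295 introns. Those 295 held 2620, 3657 and 3275 reads, of which 1618, 2426 and 1997 lay in intron 6 of Rpl7a. Without the 4 of them with most reads, their level per kb was 2.53, 2.83 and 3.05. At 0 h the 29 hosts had 39 to 5522 intronic reads each, with a median of 957, while the 50 members without an annotated snoRNA had 0 to 47, with a median of 12. At 1 h hosts had 68 to 7150, with a median of 1446, and non-hosts 0 to 41, with a median of 15. At 6 h hosts had 64 to 6549, with a median of 1153, and non-hosts 0 to 73, with a median of 16. The ranges barely met at 0 and 6 h and did not meet at 1 h.

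**Figure D3:**
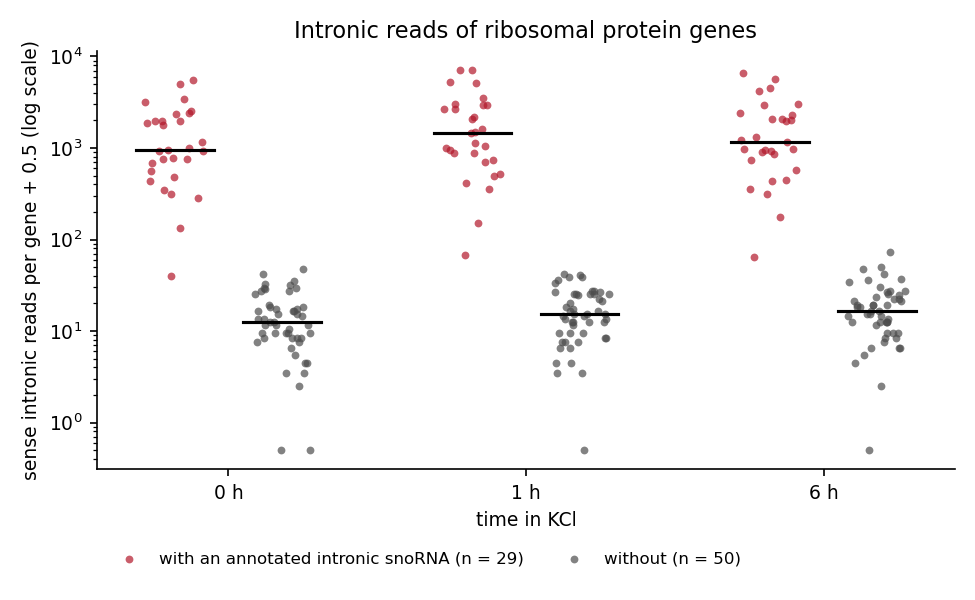
Each point is a ribosomal protein gene, with its sense intronic reads plus 0.5 on a log scale, at 0, 1 and 6 h of KCl. Red points are the 29 members with an annotated intronic snoRNA, grey points the 50 without, and black bars the medians. The medians were 957, 1446 and 1153 with a snoRNA and 12, 15 and 16 without.

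The 29 hosts had more intronic than exonic reads, also where their exons had few. Whether such intronic reads follow the level of the host mRNA was not tested. Of the 29, 16 had fewer than 20 exonic reads in every library, and Rpl23a, a large subunit protein with 0 exonic reads in all 3, had 1993, 2665 and 2058 intronic reads. Of these, 1410, 1894 and 1393 lay in its intron 2, which holds Snord4a. The 4 hosts with most intronic reads were Rpl13a, with 5522, 7144 and 6549, Rpl17, with 4944, 7150 and 5727, Rpl7a, with 3438, 5132 and 4216, and Rps12, with 3210, 5287 and 4480. Rpl4 had 2388, 3497 and 2982, and Rpl32 had 2372, 2959 and 2015. Each host named here had more intronic reads at 1 h than at 0 h.

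Of single introns, intron 4 of Rps12 (224 bp; the gene lies at mm9 chr10:23504991-23507006, minus strand), with the Snord100 printed above, had 2560, 4148 and 3590 reads. Its ratio was 1.45 (1.38 to 1.52) at 1 h against 0 h and 1.33 (1.26 to 1.40) at 6 h against 0 h. Intron 2 of Rpl13a (221 bp; gene at chr7:52381146-52384105, minus strand), with Snord32a, had 2771, 3161 and 3189 reads and ratios of 1.02 and 1.09 (1.03 to 1.15) at 6 h. These were the member introns with most reads, and they moved by different amounts. Intron 1 of Rpl32 (gene at chr6:115755532-115758761, minus strand), with Snora7a, had 2364, 2955 and 2005 reads, a ratio of 1.11 (1.06 to 1.18) at 1 h and of 0.80 (0.76 to 0.85) at 6 h. Intron 5 of Rps3, with Snord15b, had 1700, 2287 and 2001, a ratio of 1.20 (1.13 to 1.28) at 1 h. Intron 3 of Rpl4, with Snord16a, had 1244, 1912 and 1598, a ratio of 1.37 (1.28 to 1.47) at 1 h and 1.21 (1.13 to 1.31) at 6 h. Intron 1 of Rpl6, with Gm26205, had 1941, 2159 and 2040 reads, with a ratio of 0.99 at 1 h and at 6 h against 0 h.

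**Figure D4:**
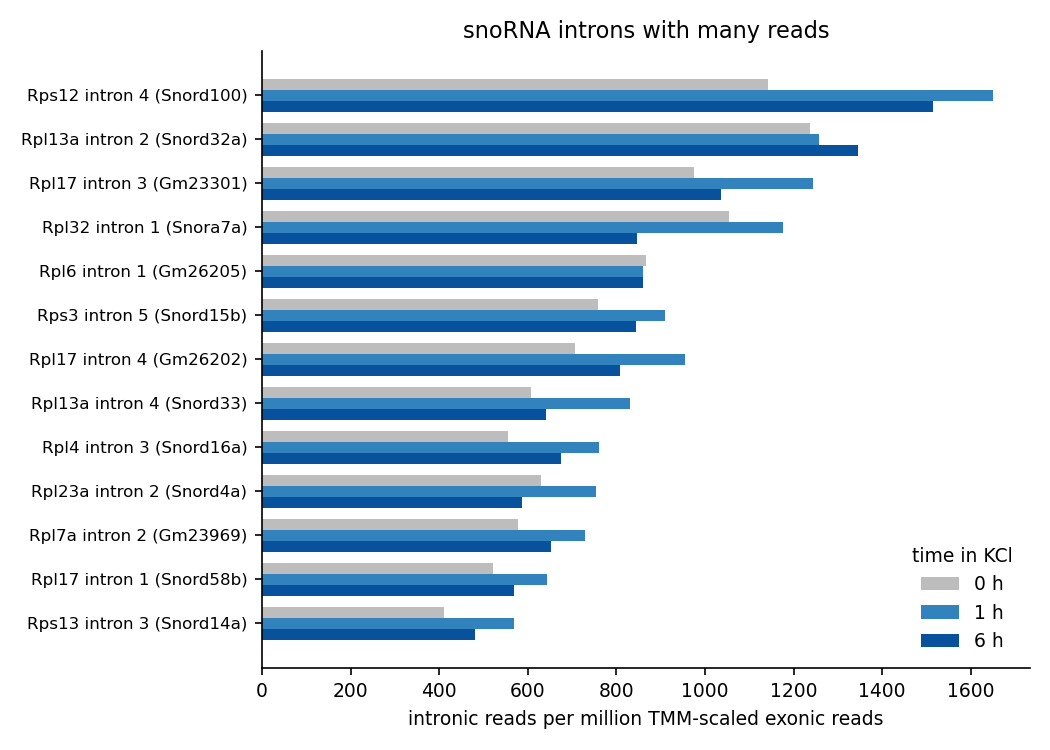
Bars give scaled RPM, the reads relative to the TMM-scaled exonic total, in 13 snoRNA introns with many reads, named by host gene, intron number and snoRNA, at 0, 1 and 6 h of KCl. Intron 4 of Rps12 had 2560, 4148 and 3590 reads at these times and stands highest at 1 h.

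Where the files list a snoRNA as its own row inside a member, the reads lay on the snoRNA. This was so for 11 rows in 7 hosts. Rnu32, the deposited name at Snord32a, covers 81 bp or 36.7% of intron 2 of Rpl13a and held 2756, 3147 and 3179 reads, or 99.5%, 99.6% and 99.7% of the reads of that intron. The row Rnu33 held 98.4% to 98.8% of its intron's reads, Rnu35a 98.6% to 99.3% and Rnu15-b 97.4% to 97.7%. H/ACA rows held less, with 75.1% to 80.7% for Snora64 in Rps2, 72.2% to 78.9% for Snora70 in Rpl10 and 34.1% to 40.7% for Snora62 in Rpsa. The library protocol selected short fragments, and whether this favoured snoRNAs was not tested. Reads of these introns can come from the processed snoRNA or from the pre-mRNA, and the counts cannot tell them apart.

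Member C/D snoRNAs lay close to the 3′ end of their introns. They were 65 to 148 bp long, with a median of 74, and ended a median of 83 bases before the 3′ end of the intron, 21 of 34 of them at 60 to 90 bases. The 82 C/D snoRNAs in introns of other genes ended a median of 151 bases before it, 32 of them at 60 to 90 bases. The 34 member introns spanned 15810 bp in all and the 77 introns of other genes 119566 bp, so member introns were shorter on average. The distances were not set against intron length. Member H/ACA snoRNAs were 129 to 203 bp long, with a median of 133, and ended a median of 197.5 bases before the intron end. C/D introns had a median of 607.5, 959 and 824 reads at 0, 1 and 6 h, and H/ACA introns of 450, 586.5 and 483.5.

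Reads in snoRNA introns of members were higher at 1 h than at 0 h, with a ratio of sums of 1.21 (1.19 to 1.22). These introns had medians of 546.5 and 688 reads at 0 and 1 h, while any intron entered from 20 reads, and more reads give narrower intervals. Of 57 such introns compared, 48 had a ratio above 1 and 33 had an interval above 1, where 7.24% of all single introns did. An interval below 1 was found for 2, where 45.5% of all introns had one. None was 2-fold or more higher or lower, where 4.36% and 28.1% of all introns were, and ratios ran from 0.690 to 1.66, with a median log2 ratio of 0.31. The highest was intron 5 of Rpl7a, which holds Gm24134, with 613 reads at 1 h and 330 at 0 h, a ratio of 1.66 (1.45 to 1.90). The lowest was intron 3 of Rps3a, which holds Rnu73b, with 249 and 322 reads, a ratio of 0.69 (0.58 to 0.82). Intron 3 of Rpl13, with Snord68, was the other below 1, with 931 and 921 reads, a ratio of 0.90 (0.82 to 0.99).

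At 6 h the same introns had a ratio of sums of 1.10 (1.09 to 1.12) to 0 h and of 0.915 (0.904 to 0.926) to 1 h. Against 0 h, the interval lay above 1 for 25 of 56 and below 1 for 1, where 12.9% and 20.1% of all introns did, with a median log2 ratio of 0.16. None was 2-fold or more higher or lower, where 6.54% and 10.2% of all introns were. Against 1 h it lay above 1 for 7 of 57 and below 1 for 27, where 38.3% and 7.29% of all introns did, with a median log2 ratio of -0.12. Again none was 2-fold or more higher or lower, where 23.1% and 4.11% of all introns were. The sum was thus highest at 1 h and between the other times at 6 h. For C/D introns the ratio of sums was 1.23 (1.21 to 1.25) at 1 h and 1.13 (1.11 to 1.15) at 6 h against 0 h. For H/ACA introns it was 1.14 (1.11 to 1.17) and 1.03 (1.00 to 1.05).

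Beside this stood the introns of other genes. The 281 snoRNA introns of 220 other genes had a ratio of sums of 1.15 (1.14 to 1.16) at 1 h and 1.14 (1.13 to 1.15) at 6 h against 0 h, and of 0.992 (0.984 to 1.00) at 6 h against 1 h. At 1 h, 80 of 199 compared had an interval above 1 and 26 below 1, where 7.24% and 45.5% of all single introns did. For C/D introns it lay above 1 for 20 of 34 in members and 40 of 68 in other genes. For H/ACA introns it lay above 1 for 10 of 18 in members and 33 of 98 in other genes. These H/ACA introns had a median of 450 reads at 0 h in members and 68.5 in other genes, and fewer reads give wider intervals. The 18 of members spanned 13765 bp in all and the 138 of other genes 2484194 bp. The part of depth and intron length in these counts and in the sums was not tested. The sums at 1 h were thus higher in members and in other snoRNA hosts, by 1.21 and 1.15 times. By class, the 1 h ratio was 1.23 for C/D introns of members and 1.22 for those of other genes, and 1.14 and 1.12 for H/ACA introns. At 6 h against 1 h the C/D sums were lower in both sets, at 0.918 in members and 0.941 in other genes. The H/ACA sums had ratios of 0.900 in members and 1.05 in other genes. Relative to the snoRNA introns of other genes, the member sum had a ratio of 1.05 at 1 h and of 0.966 at 6 h against 0 h. The difference between these sets was not tested. Introns of other genes without a snoRNA had a ratio of sums of 0.722 (0.720 to 0.723) at 1 h, 0.919 at 6 h against 0 h and 1.27 at 6 h against 1 h. Member introns in the 50 genes without a snoRNA had 744, 859 and 951 reads in all, with a ratio of 1.03 (0.932 to 1.14) at 1 h and of 1.21 (1.10 to 1.33) at 6 h against 0 h.

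**Figure D5:**
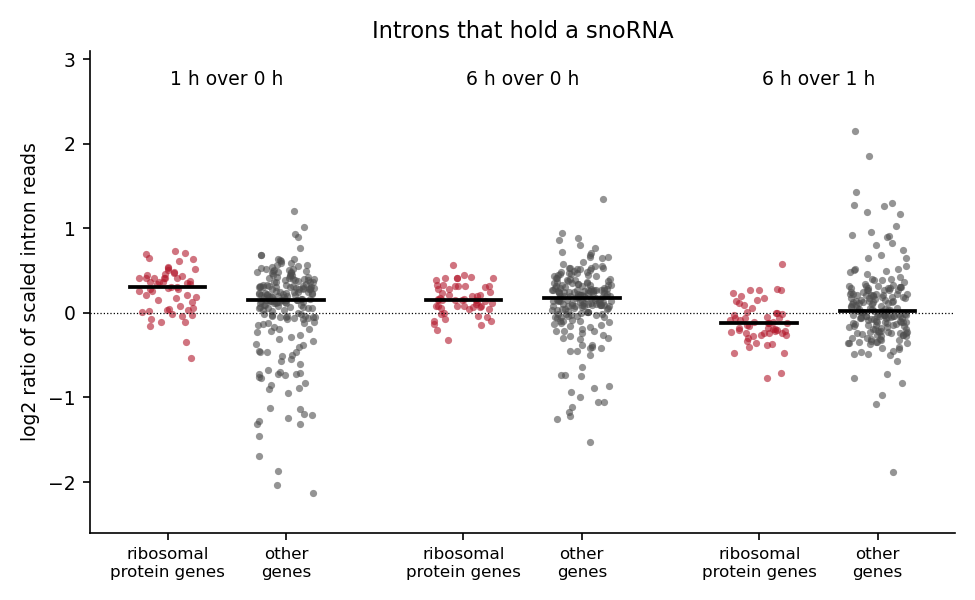
Each point is an intron with an annotated snoRNA and at least 20 reads, with its log2 ratio of scaled reads, for 1 h over 0 h, 6 h over 0 h and 6 h over 1 h. Red points are introns of ribosomal protein genes, grey points those of other genes, and bars the medians. Member medians were 0.31, 0.16 and -0.12, and those of other genes 0.15, 0.17 and 0.02.

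Introns of the same host differed widely in reads, though they come from the same transcript. In the 15 hosts with 2 or more snoRNA introns, the highest intron held a median of 6.59, 6.95 and 6.88 times the reads of the lowest at 0, 1 and 6 h. In Rps12, intron 4 had 2560 reads at 0 h and intron 5, which holds the H/ACA snoRNA Snora33, had 89, a ratio of 28.8. That ratio was 26.8 at 1 h and 34.2 at 6 h. In Rpl4, 5 introns had 103 to 1244 reads at 0 h. The intron with most reads was the same in all 3 libraries in 13 of the 15 hosts, and the whole order of introns in 13. Rpsa was one host whose order changed.

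Exonic and intronic ratios of the hosts were set side by side. Of the 29 hosts, 19 had an interval above 1 for the sum of their snoRNA introns at 1 h against 0 h, 15 at 6 h against 0 h and 3 at 6 h against 1 h. It lay below 1 for 1, 1 and 14. Of all single introns, 7.24%, 12.9% and 38.3% lay above 1 in these comparisons and 45.5%, 20.1% and 7.29% below. In the 13 hosts whose exons could also be compared, the interval at 1 h lay above 1 for the introns of 8, for the exons of 2 and for both in 1. At 6 h these counts were 6, 6 and 5. Both ratios, whatever their intervals, were above 1 in 7 of the 13 hosts at 1 h and in 8 at 6 h against 0 h. The exons of these hosts had fewer reads than their snoRNA introns, and fewer reads give wider intervals. Of all genes, 12.1% had exons above 1 at 1 h and 23.2% at 6 h against 0 h. Rpl30 (chr15:34370265-34372977, minus strand) had an exonic ratio of 3.78 at 6 h, while its intron 3, with the H/ACA snoRNA Gm24523, had 928 reads at 6 h and 934 at 0 h, a ratio of 0.94 (0.86 to 1.03). Rps3 had an exonic ratio of 1.41 and an intronic ratio of 1.11. Rpl32 had an exonic ratio of 0.93 and an intronic ratio of 0.80.

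Among the 295 member introns with no annotated snoRNA, intron 6 of Rpl7a (186 bp) stood apart with 1618, 2426 and 1997 reads, a ratio of 1.34 (1.26 to 1.42) at 1 h and 1.17 (1.09 to 1.25) at 6 h against 0 h. Next in reads among them at 0 h came intron 3 of Rps15a, with 31, 30 and 34 reads. At 1 h against 0 h, intron 2 of Rpl10 had 24 and 4 reads, a ratio of 5.35 (1.84 to 21.2), and intron 4 of Rpl10a had 7 and 22, a ratio of 0.284. At 6 h against 0 h, intron 5 of Rps7 had 29 and 8, a ratio of 3.43. These introns were picked after their values were seen.

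Other genes of translation were counted in the same way, beside all genes, of which 12.1% lay above and 12.9% below 1 at 1 h, and 23.2% and 21% at 6 h against 0 h. Of 7 elongation factor genes compared, the interval at 1 h lay above 1 for 3 and below 1 for 1, and the counts were the same at 6 h against 0 h. Eef1a1, the common form of the factor that brings tRNA to the ribosome, had an index of 3.76% and 335, 514 and 482 reads at 0, 1 and 6 h, a ratio of 1.37 (1.19 to 1.57) at 1 h. Eef1a2, its form in neurons and muscle, had 930, 942 and 815 reads, a ratio of 0.83 (0.75 to 0.91) at 6 h. Of 34 initiation factor genes, 8 were above and 3 below at 1 h, and 13 above and 1 below at 6 h. Eif5b, the factor that joins the subunits, had 51 reads at 1 h and 128 at 0 h, a ratio of 0.355 (0.25 to 0.50). For the genes of mTOR signalling and of control of oligopyrimidine mRNAs, 2 of 12 were above and 4 below at 1 h, and 5 of 13 above and 2 below at 6 h. Rheb, the GTPase that activates mTOR, had 636 reads at 6 h and 283 at 0 h, a ratio of 2.13 (1.84 to 2.45), and mTOR itself (Frap1 in the files) had 363 and 517, a ratio of 0.66 (0.58 to 0.76).

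Of 46 ribosome biogenesis genes, 2 were above and 5 below at 1 h, and 11 above and 3 below at 6 h, the share above at 6 h being near the 23.2% of all genes. Of the mitochondrial ribosomal protein genes, 10 of 66 were above and 4 below at 1 h, where 12.1% and 12.9% of all genes were, with a median log2 ratio of 0.13. By 6 h, 4 of 64 were above and 10 below, where 23.2% and 21% of all genes were, with a median of -0.08, while the members' median was 0.25; this difference was not tested. Gnb2l1, which encodes the ribosome-bound protein RACK1 and lies outside the symbol rule, had 972, 1245 and 1288 reads, a ratio of 1.14 (1.05 to 1.24) at 1 h and 1.25 (1.15 to 1.36) at 6 h. Of 4 non-coding snoRNA host genes compared, 2 were above and 0 below at 1 h, and 2 above and 1 below at 6 h against 0 h, with median log2 ratios of -0.15 and -0.12. Gas5, such a host with an oligopyrimidine start, had 8619, 12233 and 9861 reads, a ratio of 1.27 (1.23 to 1.30) at 1 h and 1.08 at 6 h. Snhg1, listed as Snord22, had 20802, 26166 and 25041 reads, with ratios of 1.12 and 1.14. Snhg3 had 23, 18 and 19 reads, a ratio of 0.70 (0.35 to 1.35) at 1 h. Snhg12, listed as LOC100039864, had 21, 17 and 7 reads, with ratios of 0.72 (0.36 to 1.44) at 1 h and 0.315 (0.11 to 0.77) at 6 h.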

How the data were processed

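Whole-transcriptome libraries of depolarized MGE-derived neurons, 1 per time, were made with directional ligation after fragmentation and selection of short fragments, per the labels' protocols. Reads were mapped uniquely to mm9, per the submitters' processing notes and the labels; no source used here names the aligner. The authors deposited sense and antisense read counts per gene, exon and intron, an exon mappability index, multiplied by 100 here, and a coverage signal per base scaled to 10000000 mapped reads and divided by that index. No per-sample column was left out.

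Here the deposited counts of the 3 libraries were scaled by TMM factors over exonic counts (edgeR 4.0.16, R 4.3.3). Ratios carry exact 95% Clopper-Pearson intervals (SciPy 1.17.1) that cover counting error only. Features with at least 20 reads in 1 of the libraries compared entered, with a pseudocount of 0.5 reads for log2 ratios. With 1 library per time no test could be run. The ratio step was tested on simulated data. snoRNA introns came from GENCODE vM21 (GRCm38) by gene and identical intron length, without converting coordinates. C/D snoRNAs had TGATG in the first 20 and CTGA in the last 15 bases; H/ACA ones had ACA in the last 10 bases and at least 110 bases; only the sense strand was searched. Of all 1559 annotated snoRNA transcripts, 22.6% met the C/D and 43.0% the H/ACA letters. Members, lists and rules were chosen with earlier results of these data known. A few members are counted but not reported by name here. Genes were named by their interval's distance from 1 (8 each way), level, mappability, paralogy or intronic reads. Alternatives were total exonic, mapped and intronic scaling, DESeq2 1.42.0 size factors, other minimum counts, higher mappability, members without overlapping genes and the deposited coverage. Reads of same-strand overlapping genes, as for 8 members, cannot be told apart.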

Additional observations from a re-analysis of the deposited data

How the results depend on the processing

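No paired analysis was possible because each time has 1 library, and for the same reason no library could be left out. The median log2 ratio of members at 1 h (0.22) was 0.46 with scaling by mapped reads, 0.47 with the deposited coverage and 0.15 over the 4 members with an index of at least 80%. The members above 1 (4) were then 13 with mapped reads and 1 at that index. For 6 h against 0 h the median (0.25) was 0.15 with total exonic reads, 0.40 with mapped reads, 0.33 with a minimum of 1 read, 0.41 with the coverage and -0.012, in the other direction, at an index of at least 80%. The members above 1 (9) were 5 with total exonic reads and 2 at that index, and those below 1 (1) were 3 with total exonic reads, 0 with mapped reads and 2 with a minimum of 1 read. Between 6 h and 1 h the median (0.17) was 0.076 with total exonic reads, 0.085 with mapped reads, 0.026 with at least 50 reads or without overlapping genes, 0.042 with the coverage and -0.16, in the other direction, at that index. The members above 1 (3) were 1 with total exonic reads, mapped reads, that index or no overlap, and 5 with a minimum of 1 read.

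The ratio of summed member intronic reads at 1 h (1.21) was 1.61 with total intronic reads, 1.43 with mapped reads, 1.24 without overlapping genes and 1.03 without snoRNA hosts. For 6 h against 0 h (1.11) it was 1.19 with total intronic reads, 1.23 with mapped reads and 1.21 without hosts. For 6 h against 1 h (0.917) it was 0.739 with total intronic reads, 0.862 with mapped reads, 0.899 without overlap and 1.17, in the other direction, without hosts. For snoRNA introns at 1 h (1.21) the ratio was 1.42 with mapped reads, 1.61 with total intronic reads and 1.05 relative to snoRNA introns of other genes. Against 0 h, the 6 h ratio (1.10) was 1.03 with total exonic reads, 1.22 with mapped reads, 1.18 with total intronic reads, 1.12 without the 5 introns with most reads and 0.966, in the other direction, relative to snoRNA introns of other genes. Against 1 h, the 6 h ratio (0.915) was 0.855, 0.860 and 0.737 with total exonic, mapped and total intronic reads.

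Of 19 calls of single members, all kept their side with DESeq2 size factors and with TMM without members, 16 with mapped reads and 13 with total exonic reads. With total exonic reads the lost calls included Rpl13a, Rpl4 and Rpl8 at 6 h against 0 h and Rpl8 at 6 h against 1 h. With mapped reads they included Rps15a at 6 h against 0 h and Rpl8 at 6 h against 1 h. Mapped-read scaling moved the log2 median of all genes by 0.25 at 1 h and 0.15 at 6 h against 0 h, so the members' medians rise with it. Total exonic reads moved it by -0.10 at 6 h against 0 h. Low mappability limits the exonic values of most members.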
